A study of Mus musculus with 9 samples.

Results

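CD8+ T cells of C57BL/6 mice were activated for 3 days without polarisation (Tc0 cells), either with coenzyme A (CoA) or untreated, and their total RNA was sequenced. The comparison takes 6 of the 9 libraries of the series: the 3 Tc0 libraries with CoA and the 3 untreated Tc0 libraries, named by the agent in their labels. Each of 3 mice (numbered 715, 725 and 728) gave 1 library to each group, so that the groups were matched by mouse, and the 3 mice are separate animals. The untreated cells were described as given vehicle in the extraction protocol. Neither the dose of CoA nor the activating stimulus nor the age of the mice is stated in the sources used here. No allele or transgene was named in either group. The other 3 libraries, of cells polarised to secrete interleukin-22 (Tc22) from the same mice, entered the model only to estimate the spread and the mouse terms.

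CoA carries acetyl and longer acyl groups between enzymes. Cells make it from pantothenate (vitamin B5), and its acetyl form feeds the TCA cycle, lipid synthesis and the acetylation of histones. A CD8+ T cell that meets its antigen and costimulation enlarges, divides and turns on cytokine, chemokine and granzyme genes, while genes that keep a resting cell quiescent and recirculating are turned down. The comparison asks which transcripts of such cells differ when CoA is present during activation.

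Gene counts summed to between 21841034 and 36254631 per untreated library and to between 22642510 and 27905487 per library with CoA. The first principal component of the 6 libraries (48.7% of the variance) put all 3 CoA libraries on one side and all 3 untreated ones on the other, and the untreated library of mouse 715 lay nearest to the CoA libraries. The second (33.6%) set both libraries of mouse 728 apart from the rest. A chi-square over genes, divided by its degrees of freedom, came to 243 and 143 when the untreated library of mouse 728 was set beside those of mice 715 and 725. Other pairs within a group gave 40.6 to 71.9. Histone genes took 0.668% of the counts of the untreated library of mouse 728 and at most 0.188% in the other untreated libraries. In the CoA library of mouse 725, ribosomal RNA genes took 0.502% of counts, against at most 0.0113% in the other Tc0 libraries. The CD8 T cell markers summed to 3022 to 4189 CPM (counts scaled to a common library size) without CoA and 2872 to 3518 CPM with it. Of all genes tested, 12.5% were called higher with CoA and 12.0% lower. Of the 12 CD8 T cell markers 0 rose and 4 fell. The falls were the CD3 chains Cd3d (-0.79), Cd3e (-0.72) and Cd3g (-0.72) and the receptor chain Trac (-0.48) on the log2 scale. Each of the 4 calls was lost without mouse 728 (adjusted p = 0.0565, 0.0600, 0.127 and 0.0512 by edgeR). Those of Cd3e and Trac were also lost without the mouse block (0.0662 and 0.0637). The Trac call was lost without the CoA library of mouse 728 (0.0677). That of Cd3g was lost without either CoA library of mice 725 and 728 or either untreated library of the same mice (0.0515 to 0.121).

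Markers of other cells moved in both directions. Their counts stand against 12.5% of all genes called higher and 12.0% called lower, with between 1 and 7 members measured per list. Of the B cell markers measured, Cd74 and Ebf1 rose, H2-Ab1 fell and 2 of 5 did not pass the test. The 10 B cell markers summed to 153 to 427 CPM untreated and 173 to 248 CPM with CoA, and 0 of the 10 were under 0.1 CPM in all 6 libraries. Macrophage and monocyte markers summed to 4.97 to 8.31 CPM and 5.66 to 15.6 CPM, with 2 of 5 measured called higher (Cd14 and Lyz2). Dendritic cell markers summed to 5.60 to 6.42 CPM and 8.21 to 13.2 CPM, with 2 of 5 called higher (Zbtb46 and H2-Aa) and Clec9a and Siglech under 0.1 CPM throughout. Granulocyte and mast cell markers summed to 0.409 to 1.35 CPM and 1.86 to 4.48 CPM. In that list 1 of 2 measured was called higher (Mcpt8), and S100a9, Elane and Mpo were under 0.1 CPM throughout. Markers of CD4 and regulatory T cells summed to 407 to 657 CPM and 174 to 317 CPM (Cd40lg and Cxcr5 higher and Ctla4 lower of 7). Natural killer cell markers summed to 1.95 to 2.99 CPM and 1.33 to 1.88 CPM, gamma delta T cell markers to 135 to 182 CPM and 95.7 to 126 CPM. In each of these lists 0 of 4 measured were called higher and 1 lower. The 1 erythroid marker measured did not pass the test, and that list summed to 1.32 to 2.09 CPM and 0.723 to 1.29 CPM. Of the 11 marker genes named here as changed, Cd74, Ebf1, Mcpt8 and Cxcr5 were called under each alternative run. The other 7 were not called under at least 1 of them. Without the block the adjusted p was 0.114 for Cd14, 0.171 for Lyz2, 0.0570 for Zbtb46, 0.0667 for H2-Aa, 0.240 for H2-Ab1 and 0.0818 for Cd40lg. Without the untreated library of mouse 725 the 7 stood at 0.0559 (Cd14), 0.0834 (Lyz2), 0.0819 (Zbtb46), 0.101 (H2-Aa), 0.0536 (H2-Ab1), 0.0793 (Cd40lg) and 0.0588 (Ctla4). Without the CoA library of mouse 725, Lyz2 (0.0806), Zbtb46 (0.0665), H2-Aa (0.0604) and Cd40lg (0.140) were not called. Without mouse 728, Cd14 (0.0844), Lyz2 (0.0723), H2-Aa (0.0533), H2-Ab1 (0.0740), Cd40lg (0.0941) and Ctla4 (0.0810) were not. Cd14 and Cd40lg were also lost without the untreated library of mouse 728 (0.0527 and 0.0553), Cd40lg and H2-Aa without that of mouse 715 (0.0575 and 0.0553), and Cd40lg without the CoA library of mouse 728 (0.0603). The log2 fold change of Ebf1 was 4.52, with 5.26 without the CoA library of mouse 715 and 5.54 without the untreated library of mouse 725. The part of other cells in the results below was not tested. In bulk libraries, fewer cells of a type and less RNA per cell cannot be told apart.

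Across the whole table, 1915 of 15348 genes tested were higher with CoA (12.5%) and 1848 were lower (12.0%), 24.5% together, at an adjusted p under 0.05 in edgeR's quasi-likelihood test. The 2 directions were balanced in number but not in size. Among genes that rose, 637 did so by more than 1 on the log2 scale, 251 by more than 2 and 115 by more than 3. Among genes that fell, 581, 78 and 12 did so. The median log2 fold change was 0.74 for genes called higher, -0.74 for genes called lower and -0.01 for all genes tested. Genes called higher took 9.75% to 11.5% of all counts in the untreated libraries and 15.3% to 17.7% in the CoA libraries. Genes called lower took 15.5% to 18.3% and 9.66% to 11.7%. Of the 3763 genes called, 3724 moved in one direction in all 3 mice, and in 2861 the levels of the groups did not overlap, a separation found in 27.8% of all genes tested.

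The size of the response differed between mice. The median difference of genes called higher was 0.49 in mouse 715, 0.90 in mouse 725 and 0.70 in mouse 728 (log2 of CPM + 0.5, with CoA minus untreated). For genes called lower it was -0.45, -0.94 and -0.63. Genes with a difference over 1 in either direction numbered 506, 2070 and 1015. Across genes, the differences of 2 mice correlated with r = 0.645 (715 and 725), 0.465 (715 and 728) and 0.751 (725 and 728). These are correlations over 15348 genes, which are not independent replicates. Without the CoA library of mouse 725 or 728, or the untreated library of mouse 725, the genes called fell to between 656 and 815 higher and 504 and 670 lower, and to 947 and 675 without mouse 728. Without the mouse block they were 800 and 662. Counts of list members below stand against 12.5% and 12.0% of all genes, and are followed by the lowest count of rises and of falls with any 1 library left out. For each list so described, that lowest count was reached without one of these 3 libraries.

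**Figure D1:**
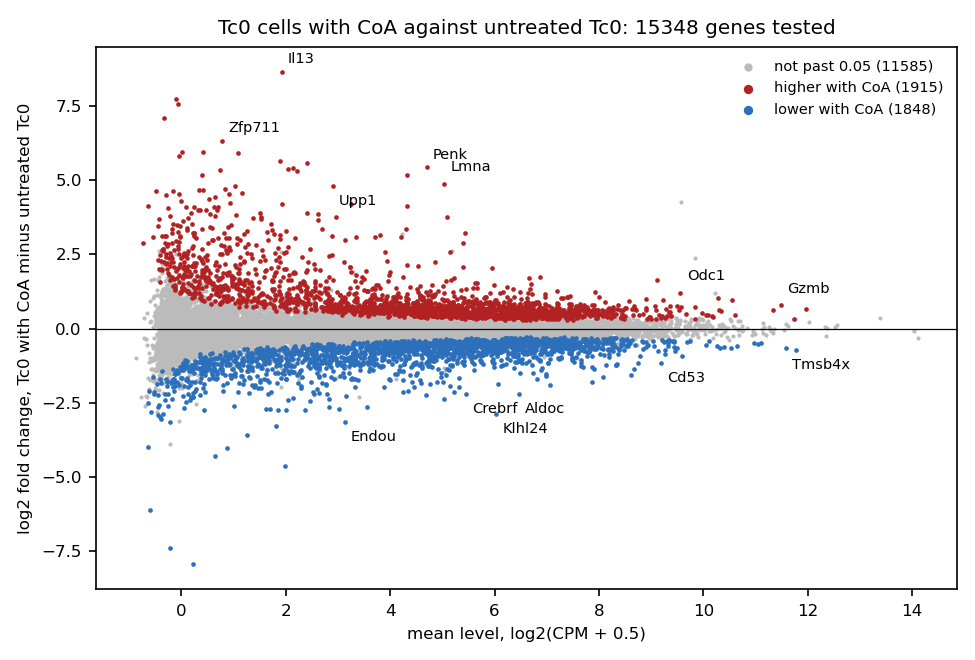
Each point is 1 of 15348 genes tested. The horizontal axis gives the mean level in the 6 Tc0 libraries as log2(CPM + 0.5), the vertical axis the log2 fold change with CoA. Red points (1915) were called higher and blue points (1848) lower at an adjusted p under 0.05, grey points were not. The largest changes in both directions are in genes with low levels.

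At a mean of at least 5 CPM, the largest rises were in genes that untreated cells barely transcribed. Penk, the gene of the opioid peptide precursor proenkephalin (ENSMUSG00000045573, chromosome 4, 4133531 to 4138819, minus strand, GRCm38), stood at 2.2, 1.17 and 0.386 CPM in the untreated libraries of mice 715, 725 and 728 and at 49.1, 69.6 and 30.9 CPM with CoA (log2 fold change 5.45, SE 0.32, adjusted p = 7.33e-05 by edgeR). Lmna, which encodes the A-type lamins of the nuclear envelope, went from 2.23, 0.933 and 3.28 to 42, 65.1 and 80.2 CPM in the same order (log2 fold change 4.88, SE 0.41, adjusted p = 0.000382). The groups did not overlap for either gene, and the lowest CoA library was more than 10 times the highest untreated one. Upp1 encodes uridine phosphorylase, which splits uridine into uracil and a ribose phosphate (ENSMUSG00000020407, chromosome 11, 9118103 to 9136170, plus strand). It went from 0.346, 0.56 and 0.551 to 9.83, 15.6 and 15 CPM (log2 fold change 4.81, SE 0.23, adjusted p = 3.01e-05), the smallest adjusted p of the table.

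A value in brackets after a gene is its log2 fold change with CoA from here on. The other large rises included Lum, the matrix proteoglycan lumican (3.87), and Ankrd33b, an ankyrin repeat gene (3.76). Lum was at 3.21 without the CoA library of mouse 725, and Ankrd33b at 4.39 and 4.44 without the CoA or the untreated library of mouse 715. Ak1, an adenylate kinase (3.36), Sulf2, a sulphatase that trims heparan sulphate outside the cell (3.13), and Ttc39c, a tetratricopeptide repeat gene (3.24), also rose. Ak1 stood at 1.73, 0.746 and 0.881 CPM untreated and 11.7, 10.9 and 9.81 CPM with CoA, and Ttc39c at 8.03, 8.86 and 7.63 and 67, 94 and 69.8 CPM. In both genes the 3 CoA libraries lay close together and far above the untreated ones. Il24, a cytokine gene of the interleukin-10 family, had another shape. Its untreated library of mouse 715 stood at 24.3 CPM and those of the other mice at 1.49 and 1.65 CPM, against 50.03, 61.6 and 61 CPM with CoA (log2 fold change 3.77, SE 0.71, adjusted p = 0.00710). The call was lost without mouse 728 (adjusted p = 0.0852) and without the mouse block (0.127), and without mouse 728 the change was 2.96. Without the CoA library of mouse 715 it was 4.80, without the untreated library of mouse 715 it was 4.93, and without the untreated library of mouse 728 it was 3.14. Anxa3, an annexin gene, had the same shape, with 10.6 CPM in the untreated library of mouse 715 and 1.12 and 1.46 CPM in the others (log2 fold change 3.15, SE 0.52, adjusted p = 0.00456). It too was lost without mouse 728 (0.0653) and without the block (0.161), and its change was 3.98 without the CoA library of mouse 715, and 2.53 with that of mouse 725 left out.

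**Figure D2:**
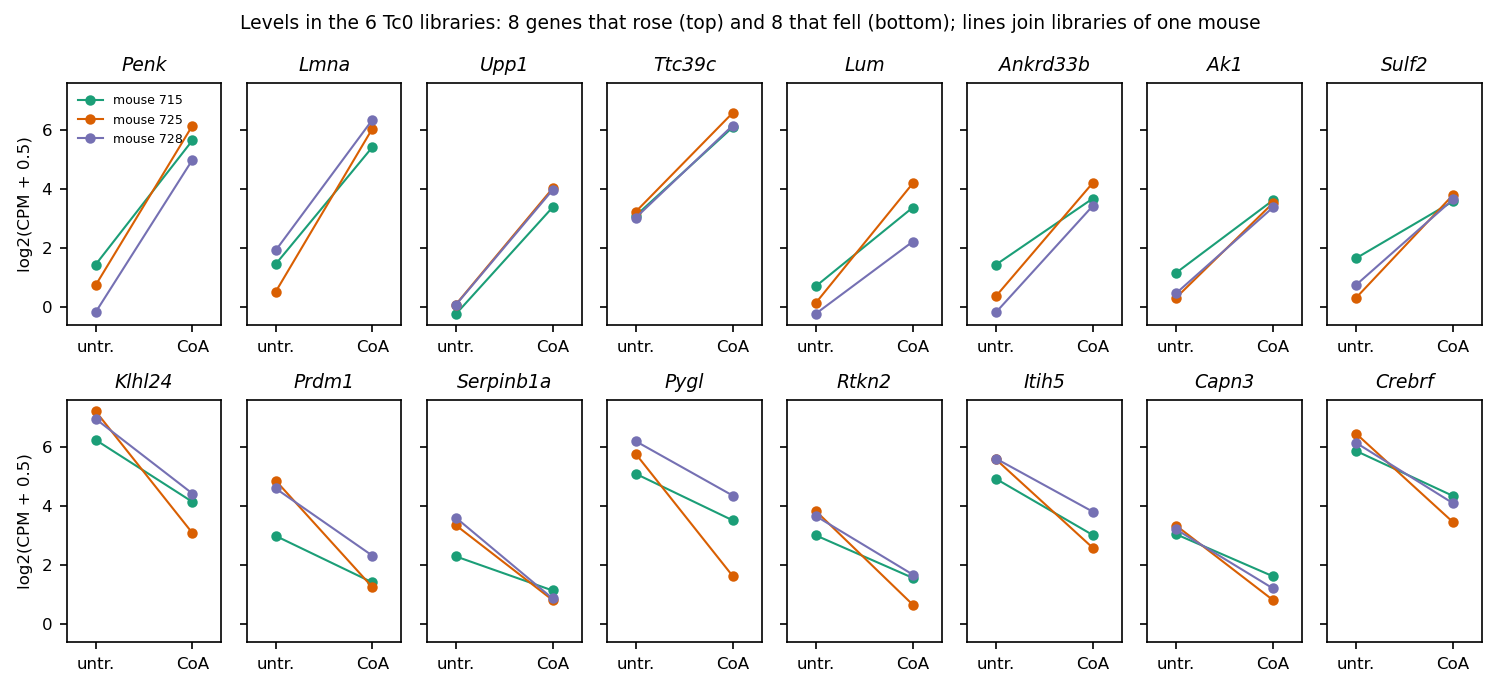
Levels as log2(CPM + 0.5) in the untreated (untr.) and CoA library of each mouse, joined by a line per mouse, for 8 genes that rose (top) and 8 that fell (bottom). The genes were chosen among called genes with one direction in all 3 mice. All upper lines therefore climb and all lower lines descend.

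Some of the genes that rose lay beside each other. Il22 and Ifng, the genes of interleukin-22 and interferon gamma, lie 236.1 kb apart on chromosome 10, and both rose. Il22 stood at 0.755, 1.35 and 0.661 CPM untreated and 30.1, 71.5 and 13 CPM with CoA (5.18), Ifng at 8.59, 1.86 and 1.51 and 37.5, 43.4 and 22.9 CPM (3.34). Ifngas1, a long noncoding RNA gene on the minus strand next to Ifng (ENSMUSG00000112230, chromosome 10, 118502035 to 118556525, minus strand), went the other way. It stood at 0.157, 3.4 and 2.56 CPM untreated and at 0.038, 0 and 0.266 CPM with CoA (log2 fold change -4.29, SE 0.68, adjusted p = 0.00399), which is 5, 73 and 93 counts against 1, 0 and 6. The untreated library of mouse 715 lay within the range of the CoA libraries, so the groups overlapped. The Ifngas1 call was lost without the mouse block (0.0530), and its change was -3.06 without the CoA library of mouse 725, -6.14 without that of mouse 728 and -6.11 without mouse 728. The change of Ifng was 4.21 without the untreated library of mouse 715. Around these genes, Mdm1 (-0.09), Gm9030 (-0.41), Gm49751 (0.80), 4932442E05Rik (-0.60) and Cand1 (0.10) did not pass the test, while Dyrk2, a protein kinase gene 665.27 kb from the Il22 start, fell (-0.67). The Dyrk2 call was lost without the CoA library of mouse 725 or 728 (0.0682 and 0.0706), without the untreated library of mouse 725 (0.0638), without mouse 728 (0.0780) and without the block (0.0502). Gm49751 lies within Ifng on the same strand, so these 2 genes may share reads whatever the strand setting of the counting.

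**Figure D3:**
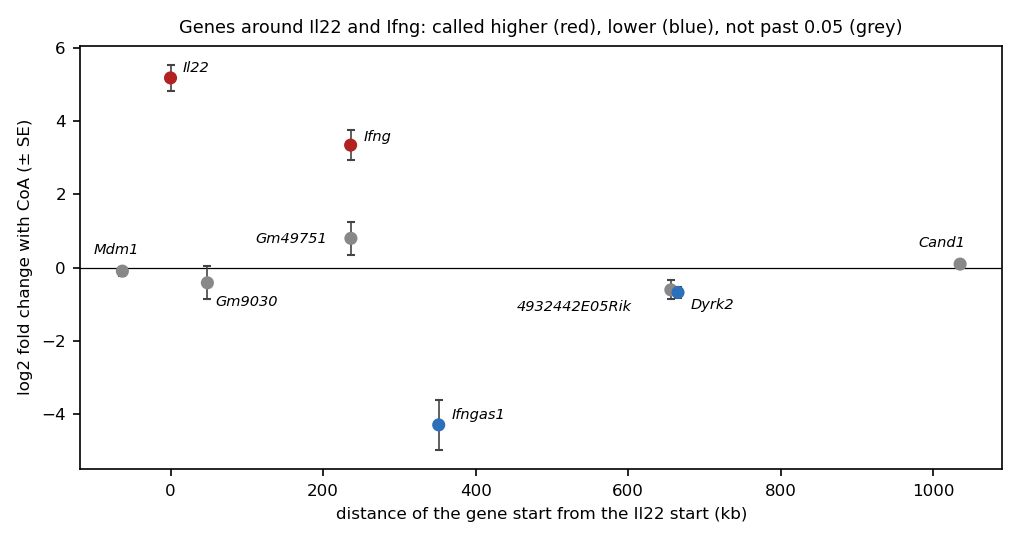
Log2 fold change with CoA of 9 genes around Il22 and Ifng against the distance of each gene's start from the Il22 start in kb. Bars give the SE, derived from the F statistic of the test. Il22 (5.18) and Ifng (3.34) were called higher, Ifngas1 (-4.29) and Dyrk2 (-0.67) lower, and the 5 grey genes were not past the threshold.

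The promoters of these 3 genes and of Upp1 are shown because they belong to the genes that moved most in opposite directions at one place and to the gene with the smallest p. They run from 250 bases before to 50 bases after the RefSeq start (GRCm38.p6), 5′ to 3′ on the strand of the gene. The locations are chr10:118204714-118205013 (plus) for Il22, chr10:118440796-118441095 (plus) for Ifng, chr10:118556476-118556775 (minus) for Ifngas1 and chr11:9117758-9118057 (plus) for Upp1. Capitals mark matches to 1 of 12 short motifs searched on both strands, allowing overlaps (AP-1 as TGANTCA, CRE as TGACGTCA, the TATA box as TATAAA, the E-box as CACGTG, the GC box as GGGCGG, forkhead as GTAAACA, ETS as CCGGAAG, STAT as TTCNNNGAA, ROR as TAGGTCA, the CCAAT box, and the ISRE-like and NF-kB patterns).
Il22: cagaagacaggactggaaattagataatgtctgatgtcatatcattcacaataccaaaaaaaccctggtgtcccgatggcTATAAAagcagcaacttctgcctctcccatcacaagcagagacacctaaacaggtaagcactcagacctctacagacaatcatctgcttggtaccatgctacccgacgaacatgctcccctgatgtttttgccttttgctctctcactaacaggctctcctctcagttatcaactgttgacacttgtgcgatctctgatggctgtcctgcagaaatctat
Ifng: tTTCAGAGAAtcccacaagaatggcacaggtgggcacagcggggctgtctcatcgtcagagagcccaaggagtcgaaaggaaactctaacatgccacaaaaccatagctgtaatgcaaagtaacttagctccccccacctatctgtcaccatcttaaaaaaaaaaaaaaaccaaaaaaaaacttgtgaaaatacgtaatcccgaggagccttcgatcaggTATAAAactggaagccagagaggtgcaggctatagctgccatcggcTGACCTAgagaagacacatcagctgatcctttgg
Ifngas1: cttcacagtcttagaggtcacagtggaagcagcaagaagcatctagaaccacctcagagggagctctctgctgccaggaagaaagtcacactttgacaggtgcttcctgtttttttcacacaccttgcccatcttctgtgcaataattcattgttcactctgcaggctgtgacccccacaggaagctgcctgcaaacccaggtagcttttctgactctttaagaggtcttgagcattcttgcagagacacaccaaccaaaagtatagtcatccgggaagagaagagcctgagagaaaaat
Upp1: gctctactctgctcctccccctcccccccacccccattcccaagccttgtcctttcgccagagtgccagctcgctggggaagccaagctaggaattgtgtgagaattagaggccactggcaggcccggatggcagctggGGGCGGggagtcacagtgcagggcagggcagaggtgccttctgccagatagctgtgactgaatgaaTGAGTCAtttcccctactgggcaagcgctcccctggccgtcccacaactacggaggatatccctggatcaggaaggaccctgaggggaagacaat
The Il22 window holds TATAAA at bases 81 to 86. The Ifng window holds TATAAA at bases 221 to 226, a STAT pattern (TTCNNNGAA) at bases 2 to 10 and a ROR pattern (TAGGTCA) on the opposite strand at bases 267 to 273. In Upp1 there is a GC box (GGGCGG) at bases 140 to 145 and the AP-1 pattern TGAGTCA at bases 206 to 212. No searched motif was found in the Ifngas1 window. These matches describe letters only.

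Among tested genes with a RefSeq promoter (10107, of which 1482 were called higher and 1332 lower), some motifs were found at unequal shares. The ETS pattern CCGGAAG was in 21.5% of promoters of genes called higher and 11.6% of those called lower, with 18.9% of all tested and 9.12% of all 27025 promoters. The E-box CACGTG was in 14.4% and 8.78%, with 10.3% of those tested and 7.24% of all promoters. TATAAA was in 9.31% and 6.38% (6.94% tested, 14.2% of all), and the AP-1 pattern TGANTCA in 6.61% and 4.5% (4.85% tested, 7.93% of all). The forkhead pattern GTAAACA went the other way, at 2.23% and 3.90% (2.55% tested, 3.55% of all). The promoters of the 181 genes that rose by more than 2 on the log2 scale had a median of 7 CpG sites and a GC content of 55.7%, against 21 sites and 60.7% in all tested. Those of the 52 genes that fell by more than 2 had a median of 10.5 sites and 59.0%. No test was made of these shares, and promoters of paralogous genes are not independent.

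Other neighbouring genes that moved together were chosen after their values were seen. On chromosome 11, Osm (0.87) and Lif (2.04), cytokine genes of the interleukin-6 family, both rose, and so did Il3 (5.19) and Csf2 (3.18), which encode growth factors of myeloid cells. Il3 stood at 0.063, 0.047 and 0 CPM untreated and 1.14, 3.18 and 0.488 CPM with CoA, so the size of its change is imprecise. That change was 6.33 and 4.28 without the CoA library of mouse 715 or 725, and 5.89 without the untreated library of mouse 715. Ccl3 (4.22), Ccl4 (3.67), Ccl6 (1.44) and Ccl9 (2.23), chemokine genes on the same chromosome, rose, whereas their neighbour Ccl5 did not pass the test (-0.33). The calls of Ccl6 and Ccl9 were lost without the CoA library of mouse 725 (0.114 and 0.0835), the untreated library of mouse 725 (0.103 and 0.0735) or mouse 728 (0.0595 and 0.0797). Ccl6 was also lost without the block (0.0716), and Ccl9 without the CoA library of mouse 728 (0.0537), with a change of 1.55 without the untreated library of mouse 725. The sequences of Ccl3 and Ccl4 resemble each other, which leaves the split of reads between them uncertain. On chromosome 8, the chemokine genes Ccl22 (3.07), Cx3cl1 (2.99) and Ccl17 (3.29) rose. Ccl22 stood at 5.82, 2.47 and 2.95 CPM untreated and 44.2, 36.9 and 15.3 CPM with CoA, with no overlap. Sox5, the gene of an SRY-related transcription factor (2.67), rose together with Sox5os3 on the opposite strand inside it (4.35), whose reads cannot be told apart from those of Sox5 without the strand setting. Sox5os3 stood at 0.126, 0.14 and 0 CPM untreated and 1.75, 3.04 and 0.577 CPM with CoA, so the size of its change is imprecise too. That change was 5.06 without the CoA library of mouse 715. At the chemokine receptor cluster of chromosome 9, Ccr2 (-1.72) fell while Ccr1 (2.5) rose. Ccr1 stood at 0, 0.606 and 0.275 CPM untreated and 0.38, 2.35 and 1.86 CPM with CoA, so that its groups overlapped, and its call was lost without the block (0.125) and without mouse 728 (0.0758). The Ccr2 call was lost without the block (0.0950).

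A few genes went from almost no reads to a clear signal. By the rule of under 0.1 CPM in all 3 untreated libraries and at least 1 CPM in all 3 CoA libraries, 5 genes were turned on and 0 were turned off. Il13, a type 2 cytokine gene (ENSMUSG00000020383, chromosome 11, 53631324 to 53634702, minus strand), had 1, 0 and 0 counts untreated and 108, 243 and 153 counts with CoA (adjusted p = 0.000489 by edgeR). Its neighbour Rad50 did not pass the test (-0.02, adjusted p = 0.912), and Il4 and Il5 in the same cluster had too few counts to be tested. Zfp711, an X-linked zinc finger gene, had 2, 0 and 0 counts and then 43, 123 and 25. Il23a, the p19 subunit of interleukin-23, had 3, 0 and 1 counts and then 79, 151 and 27. Osr2, a zinc finger gene of limb and palate development, had 2, 0 and 0 counts and then 44, 50 and 34. Plat, the tissue plasminogen activator, had 2, 0 and 3 counts and then 44, 45 and 25. The rule itself requires all 5 to be higher in each of the 3 mice. With so few untreated counts no fold is given.

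Many secreted factors rose. Of 23 measured growth factor and hormone genes, 9 rose and 1 fell (lowest counts 7 and 0), with a median log2 fold change of 0.60 against -0.01 for all genes. Besides Penk, Lif stood at 34.6, 15.8 and 24.8 CPM untreated and 75, 124 and 94.1 CPM with CoA (log2 fold change 2.04, SE 0.30, adjusted p = 0.00294), and Csf2, which encodes granulocyte-macrophage colony-stimulating factor, at 0.661, 0.70 and 0.303 and 3.72, 9.22 and 3.06 CPM (log2 fold change 3.18, SE 0.34, adjusted p = 0.000967). Every CoA library was above every untreated one for both genes. In TGF beta and BMP signalling, 3 of 31 measured members rose and 5 fell (lowest counts 3 and 0; median -0.09), shares near those of all genes. Its 3 rises were Inhba, the subunit of activin A, Tgfb2, a TGF beta ligand (3.61), and Eng, a co-receptor (1.26). Inhba went from 0.189, 0.14 and 0.165 to 5.66, 18 and 4.88 CPM (log2 fold change 5.58, SE 0.55, adjusted p = 0.000691). Without the CoA library of mouse 715 the changes of Inhba and Tgfb2 were 6.21 and 4.20, and without that of mouse 725 the change of Inhba was 4.82. Notch genes gave 6 rises and 3 falls of 28 (lowest 3 and 1; median 0.04). Jag1, a Notch ligand, went from 0.126, 0.0933 and 0.0551 to 1.67, 1.66 and 1.11 CPM (3.99), and Rbpj, the DNA-binding partner of cleaved Notch, from 392, 306 and 258 to 675, 695 and 539 CPM (1.02).

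Serpins with cathepsins, and matrix genes, held more rises than falls, and metalloproteases equal numbers. Of 32 measured serpin and cathepsin genes, 10 rose and 3 fell (lowest 8 and 1; median 0.17). Serpinb9, an intracellular inhibitor of granzyme B, went from 87.2, 102 and 64.7 to 164, 305 and 155 CPM (log2 fold change 1.26, SE 0.15, adjusted p = 0.00165), and Ctsz, a lysosomal carboxypeptidase, from 47.3, 29.8 and 48.3 to 88.9, 100 and 98.1 CPM (1.22). Serpinb9b, a paralog of Serpinb9, rose at low levels, from 0.126, 0.14 and 0.0826 to 1.52, 3.8 and 1.02 CPM (4.0), and reads of such related serpins may have been shared. Serpinb1a, in the same cluster on chromosome 13, fell from 4.41, 9.7 and 11.7 to 1.71, 1.27 and 1.33 CPM (log2 fold change -2.43, SE 0.35, adjusted p = 0.00294), with a change of -3.03 without the CoA library of mouse 715. The serpin cluster thus held members that moved in both directions. In collagen and matrix genes, 6 of 29 rose and 3 fell (lowest 3 and 1; median 0.31). The rises included Nid1, a basement membrane linker (3.42), and the thrombospondins Thbs1 (2.43) and Thbs3 (3.52), whereas P4ha1, a collagen prolyl hydroxylase, fell (-0.78). Thbs1 stood at 0.567, 1.49 and 2.42 CPM untreated and 4.67, 9.98 and 7.81 CPM with CoA, and its groups did not overlap. Metalloproteases gave 6 rises and 6 falls of 27 (lowest 4 and 1; median 0.24).

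MHC class I genes and the SLAM family held falls and no rises in the fit of all 9 libraries. Of 24 measured MHC class I genes 0 rose and 12 fell, with a median of -0.50. The lowest count of falls was 3, and 1 member rose without the untreated library of mouse 728. H2-Q4, a nonclassical class I gene, stood at 48.2, 51.7 and 69.8 CPM untreated and 36.6, 31.2 and 38.8 CPM with CoA (log2 fold change -0.66, SE 0.12, adjusted p = 0.00582), and the classical H2-D1 did not pass the test (-0.35, adjusted p = 0.105, and 0.0492 without the low-count filter). Class I genes are close copies of each other, so reads may have been split between them. In the SLAM family and its adaptors, 0 of 9 rose and 5 fell (lowest count of falls 1; median -0.66), and 1 rose without the CoA library of mouse 715 or a library of mouse 728 other than its CoA one. Cd84 went from 75.7, 107 and 70.8 to 42.8, 38.8 and 40.2 CPM (log2 fold change -1.03, SE 0.16, adjusted p = 0.00342). Slamf6 went from 27.1, 101 and 57.8 to 19, 15.3 and 15.6 CPM (log2 fold change -1.67, SE 0.34, adjusted p = 0.00919), a call lost without the CoA library of mouse 728 (0.0512) and without mouse 728 (0.0917). Ly6c2, a surface antigen of effector and memory CD8+ T cells, went from 12.8, 44.7 and 40.2 to 5.62, 6.37 and 8.26 CPM (-2.09), and its groups did not overlap.

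Adhesion and guidance receptors changed in both directions. Of 21 measured integrins, 2 rose and 8 fell (lowest 2 and 1; median -0.12). Itga6, the laminin receptor chain alpha 6, fell from 98.3, 109 and 101 to 48.3, 35.1 and 50.7 CPM (log2 fold change -1.20, SE 0.16, adjusted p = 0.00224), and Itga3, the alpha 3 chain of another laminin receptor, rose at lower levels, from 1.51, 0.653 and 1.76 to 5.16, 4.45 and 4.35 CPM (1.86). Among semaphorins, plexins, ephrins and neuropilins, 9 of 29 rose and 4 fell (lowest 7 and 1; median 0.25). Sema7a, a semaphorin anchored in the membrane by a lipid, rose from 9.79, 10.3 and 17.6 to 22.9, 40.1 and 33.2 CPM (log2 fold change 1.34, SE 0.22, adjusted p = 0.00456), and Epha2, an ephrin receptor, from 0.504, 0.0466 and 0.386 to 2.01, 2.1 and 2.57 CPM (2.79). Of 20 tetraspanins, 4 rose and 5 fell (lowest 3 and 2; median -0.09). Cd53 fell from 827, 952 and 634 to 398, 293 and 373 CPM (log2 fold change -1.17, SE 0.17, adjusted p = 0.00278). Cd81 rose from 58.3, 28.7 and 44.2 to 84, 75.2 and 92.3 CPM (0.98) and Cd82 from 40.7, 34.2 and 53.7 to 83.4, 114 and 102 CPM (1.23). All 3 are membrane organisers of leukocytes, and the groups were apart for each.

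Receptors for chemokines and other G protein signals were among both the rises and the falls. Of 17 measured chemokine receptors, 4 rose and 3 fell (lowest 3 and 3; median -0.17). Cxcr5, which guides lymphocytes to follicles, rose from 4.91, 5.46 and 5.59 to 15.7, 10.2 and 16.6 CPM (log2 fold change 1.40, SE 0.20, adjusted p = 0.00266). Of 77 other heptahelical receptors, 10 rose and 18 fell (lowest 4 and 8; median -0.26). Gpr171 fell from 188, 231 and 174 to 111, 117 and 112 CPM (-0.80) and F2r, a thrombin receptor, from 56.4, 80.2 and 71 to 31.3, 34.1 and 43.5 CPM (-0.93). Gpr65, a proton-sensing receptor, rose from 45.3, 49.9 and 39.6 to 76, 95.8 and 62.9 CPM (0.79). In galectins and C-type lectins, 9 of 30 rose and 8 fell (lowest 4 and 3; median -0.07). Klrc1, the inhibitory receptor NKG2A, went from 16.4, 10.1 and 4.9 to 96.8, 74.9 and 46.4 CPM (log2 fold change 2.88, SE 0.17, adjusted p = 7.33e-05), with a ratio that was large in each mouse. Its partner Klrd1 (CD94) did not pass the test (0.12, adjusted p = 0.755).

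**Figure D4:**
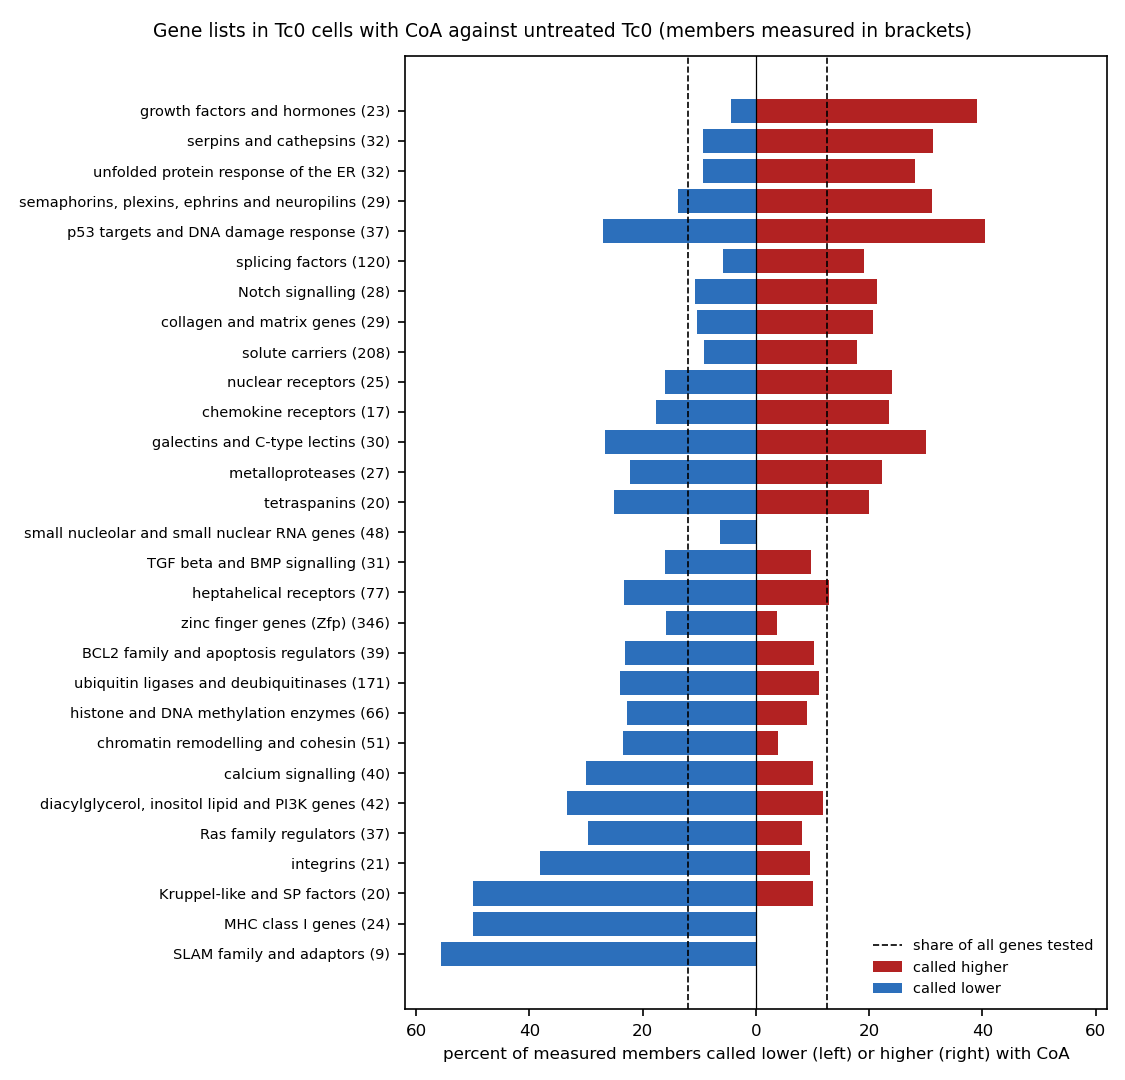
For 29 gene lists, the percent of measured members called higher (red, right) and lower (blue, left) with CoA, with the number measured in brackets. Dashed lines mark the share of all genes tested (12.5% higher, 12.0% lower). Growth factors stand at the top, MHC class I and SLAM genes at the bottom with no red bar.

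Transcription factor families were also uneven. Of 20 measured genes in the list of Kruppel-like and SP factors, 2 rose and 10 fell (lowest 2 and 4, median -0.44). The list was drawn by symbol and also holds Sp100, Sp110 and Sp140, genes of nuclear body proteins outside the SP family. Sp100 and Sp140 (-0.85) are among its falls. Klf11 fell from 13.8, 14.6 and 15.2 to 6.87, 5.17 and 8.03 CPM (log2 fold change -1.13, SE 0.16, adjusted p = 0.00266) and Sp100, a nuclear body protein, from 161, 209 and 165 to 99, 57.8 and 87.8 CPM (-1.14). Klf4 rose at low levels, from 0.346, 0.28 and 0.138 to 2.09, 2.17 and 2.62 CPM (3.22). Klf2, a factor of quiescence and recirculation, had the largest fall of its list (log2 fold change -2.64, SE 0.67, adjusted p = 0.0196) but an uneven one, since the untreated library of mouse 715 stood at 1.13 CPM and its CoA library at 1.06 CPM. The Klf2 call was lost without the CoA library of mouse 728 (0.0991), without the untreated library of mouse 725 (0.0816) or 728 (0.0658), without mouse 728 (0.167) and without the block (0.0937). Its change was -3.47 without the CoA library of mouse 715, and -1.72 with that of mouse 725 left out. Of 25 nuclear receptors, 6 rose and 4 fell (lowest 6 and 0; median 0.17). All 3 genes of the NR4A family, which antigen receptor signals induce, rose, with Nr4a1 going from 9.47, 7.13 and 9.25 to 25, 32.4 and 27.7 CPM (log2 fold change 1.74, SE 0.23, adjusted p = 0.00218), Nr4a3 from 25.9, 15.2 and 12.4 to 59.4, 62.3 and 37.6 CPM (1.62) and Nr4a2 by 1.15, the last a call lost without mouse 728 (0.0603). Pparg, a fatty acid receptor, went from 3.02, 3.73 and 2.2 to 7.17, 13.5 and 9.77 CPM (1.75). Id3, an inhibitor of E proteins, fell from 6.99, 6.71 and 15.5 to 2.96, 3.33 and 5.24 CPM (-1.30), and Satb1, a chromatin organiser, rose from 290, 297 and 251 to 454, 519 and 389 CPM (0.70).

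Zinc finger and chromatin genes fell more often than they rose. Of 346 measured Zfp genes, 13 rose and 55 fell (lowest 4 and 18; median -0.15). Zfp260 went from 93.9, 115 and 82.5 to 48.6, 32.8 and 40.7 CPM (log2 fold change -1.25, SE 0.17, adjusted p = 0.00248) and Zfp473 from 15.4, 15.2 and 17.1 to 8.28, 6.08 and 8.79 CPM (-1.06). The median exon length of these genes was 4548 bases, against 4460 bases for all protein-coding genes tested. Chromatin remodelling and cohesin genes gave 2 rises and 12 falls of 51 (lowest 0 and 2; median -0.08), led by Chd3, a helicase of the NuRD complex, which fell from 81.2, 116 and 172 to 52.3, 46.8 and 66.3 CPM (log2 fold change -1.10, SE 0.16, adjusted p = 0.00308). Histone and DNA methylation enzymes gave 6 rises and 15 falls of 66 (lowest 1 and 7; median -0.04). Kdm7a, a histone demethylase, fell from 116, 160 and 123 to 55.3, 35.8 and 49.5 CPM (log2 fold change -1.49, SE 0.21, adjusted p = 0.00277), and Prmt5, an arginine methyltransferase, rose from 76.2, 83 and 83.9 to 105, 156 and 133 CPM (0.68). Hdac9, a class IIa histone deacetylase, rose from 0.063, 0.14 and 0 to 1.06, 1.23 and 0.888 CPM (4.11), with 4.87 without the untreated library of mouse 725 and 3.52 without mouse 728.

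Lists of signalling genes downstream of the antigen receptor held more falls than rises. Of 42 measured diacylglycerol, inositol lipid and PI3K genes, 5 rose and 14 fell (lowest 1 and 6; median -0.22). Pik3ip1, an inhibitor of PI3K, fell from 32.8, 56.2 and 77.6 to 17.6, 6.83 and 18.8 CPM (log2 fold change -1.93, SE 0.32, adjusted p = 0.00467), a call lost without mouse 728 (0.0627). Sgk1, a kinase downstream of PI3K, fell from 4.53, 6.53 and 5.12 to 1.97, 2.39 and 2.4 CPM (-1.25). Pik3r6, a regulatory subunit of PI3K gamma, rose from 1.42, 0.606 and 0.413 to 3.91, 4.52 and 3.91 CPM (2.46). Ras regulators gave 3 rises and 11 falls of 37 (lowest 1 and 5; median -0.21), and Rasgrp1, the exchange factor that links diacylglycerol to Ras in T cells, fell from 339, 432 and 365 to 233, 155 and 241 CPM (log2 fold change -0.86, SE 0.17, adjusted p = 0.00874). In calcium signalling, 4 of 40 rose and 12 fell (median -0.20), but 0 in either direction passed without the CoA library of mouse 725 or the untreated library of mouse 725. Ptpn22, a phosphatase that restrains antigen receptor signalling, fell from 250, 329 and 275 to 174, 131 and 188 CPM (-0.80). Enzymes of cyclic nucleotides moved in opposite directions, with Pde4b falling from 54.4, 60.6 and 52.7 to 36, 29.5 and 29.8 CPM (-0.82) and Pde1a rising from 0.22, 0.14 and 0.138 to 2.2, 1.88 and 1.42 CPM (3.41). Prkacb, a catalytic subunit of protein kinase A, fell from 227, 331 and 298 to 155, 127 and 162 CPM (-0.93).

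Several of the largest falls were in genes well transcribed in untreated cells. Klhl24, an adaptor of a cullin ubiquitin ligase (ENSMUSG00000062901, chromosome 16, 20097542 to 20129221, plus strand), stood at 74.8, 147 and 123 CPM untreated and 17.1, 7.99 and 20.9 CPM with CoA (log2 fold change -2.89, SE 0.32, adjusted p = 0.00118). Crebrf, a negative regulator of the transcription factor CREB3 (ENSMUSG00000048249, chromosome 17, 26715650 to 26776635, plus strand), went from 57.5, 86.4 and 69.6 to 19.7, 10.4 and 16.6 CPM (log2 fold change -2.19, SE 0.24, adjusted p = 0.000967). The groups did not overlap for either gene, and the lowest level of each was that of the CoA library of mouse 725. Prdm1, the gene of the repressor Blimp-1, fell from 7.43, 28.5 and 23.6 to 2.16, 1.88 and 4.48 CPM (log2 fold change -2.64, SE 0.37, adjusted p = 0.00266), and its untreated library of mouse 715 was well below the other 2. Pygl, the liver form of glycogen phosphorylase, fell from 33.5, 53.5 and 72.3 to 10.9, 2.6 and 19.9 CPM (log2 fold change -2.38, SE 0.44, adjusted p = 0.00626), with a change of -1.77 without the CoA library of mouse 725. Itih5, a hyaluronan-binding secreted protein (-2.23), Rtkn2 (-2.37), Capn3, a calpain protease (-2.19), and Gstp3, a glutathione transferase (-2.22), also fell. The falls of Endou, an endoribonuclease gene (-3.15), and Aldoc, the aldolase C gene of glycolysis (-2.21), were lost without mouse 728 (adjusted p = 0.0857 and 0.0683). Without the CoA library of mouse 725 the changes were -2.33 for Endou and -1.62 for Aldoc, and without that of mouse 715 the change of Endou was -4.13. Ifi203, an interferon-inducible gene (-2.15), was lost without the CoA library of mouse 728 (0.0786), the untreated library of mouse 725 (0.0591) or mouse 728 (0.124), and its change was -3.11 without the CoA library of mouse 715, and -1.55 with that of mouse 725 left out. Cd7, a T cell surface gene chosen after its values were seen because it lay under the level minimum, had 15, 140 and 479 counts untreated and 5, 4 and 8 counts with CoA (log2 fold change -4.64, SE 0.53, adjusted p = 0.00125). The call was lost without the block (0.0504), and the change was -5.23 without the CoA library of mouse 715 and -4.04 without mouse 728. Gzmk, a granzyme gene chosen in the same way, had 12, 100 and 95 counts and then 3, 2 and 5 (log2 fold change -4.01, SE 0.57, adjusted p = 0.00271), with -3.05 without the CoA library of mouse 725.

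Stress and growth lists were the last group. Of 37 measured p53 targets and DNA damage genes, 15 rose and 10 fell (lowest 4 and 5; median 0.15). Trp53inp1, a p53-induced gene of autophagy, fell from 706, 604 and 442 to 300, 168 and 226 CPM (log2 fold change -1.35, SE 0.16, adjusted p = 0.00159), while Tigar, a fructose bisphosphatase, rose from 20.02, 14.6 and 14.2 to 32.2, 42.9 and 31.3 CPM (log2 fold change 1.13, SE 0.16, adjusted p = 0.00290) and Gadd45g, a stress sensor, from 1.23, 1.31 and 3.55 to 4.55, 7.85 and 9.99 CPM (1.93). Genes that p53 induces thus stood among both the rises and the falls. The unfolded protein response gave 9 rises and 3 falls of 32 (median 0.11), but 1 and 0 without the untreated library of mouse 725. Calr, a calcium-binding chaperone of the endoplasmic reticulum, rose from 375, 409 and 410 to 571, 801 and 662 CPM (log2 fold change 0.76, SE 0.11, adjusted p = 0.00265). Splicing factors gave 23 rises and 7 falls of 120 (median 0.13), but 3 and 1 without either library of mouse 725 and 3 and 4 without the CoA library of mouse 728. Hnrnpab rose from 657, 604 and 462 to 856, 1121 and 869 CPM (0.73) and Prpf31 from 64.8, 60.8 and 71.9 to 90.3, 118 and 117 CPM (0.72). Of 208 solute carriers, 37 rose and 19 fell (lowest 13 and 5; median 0.17). Slc7a11, which exchanges cystine for glutamate, rose from 2.36, 2.47 and 1.16 to 9.26, 9.19 and 7.41 CPM (log2 fold change 2.17, SE 0.22, adjusted p = 0.000716). Ubiquitin ligases and deubiquitinases gave 19 rises and 41 falls of 171 (lowest 7 and 9; median -0.11). Regulators of apoptosis in the BCL2 list gave 4 and 9 of 39 (lowest 3 and 2; median -0.02), and its member Bcl2a1b, an inhibitor of apoptosis with close copies, rose (0.88).

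Among abundant transcripts, the largest gains in CPM were those of genes such as Gzmb, Hspd1, Tfrc, Odc1 and Ccnd2. Gzmb, the gene of granzyme B, stood at 2229, 2229 and 1825 CPM untreated and 3262, 4064 and 3617 CPM with CoA (log2 fold change 0.80, SE 0.12, adjusted p = 0.00353). Hspd1, the mitochondrial chaperonin, went from 1380, 1044 and 682 to 1850, 2341 and 1704 CPM (0.97), and Tfrc, the transferrin receptor, from 996, 942 and 549 to 1531, 2082 and 1395 CPM (1.04). Odc1, the first enzyme of polyamine synthesis, went from 601, 404 and 364 to 977, 1263 and 918 CPM (1.22), and Ccnd2, cyclin D2, from 274, 278 and 246 to 710, 1132 and 662 CPM (log2 fold change 1.63, SE 0.18, adjusted p = 0.00112). The groups did not overlap for any of these 5 genes. The largest losses included Pgk1, a glycolytic kinase, from 3860, 4758 and 4421 to 2699, 2275 and 3033 CPM (log2 fold change -0.71, SE 0.13, adjusted p = 0.00590), and Tmsb4x, which binds actin monomers, from 3717, 4136 and 3410 to 2414, 2112 and 2588 CPM (log2 fold change -0.66, SE 0.12, adjusted p = 0.00662). Mki67, a marker of dividing cells, was also lower (-0.57), a call lost without the CoA library of mouse 725 (0.0867) or 728 (0.0701), the untreated library of mouse 725 (0.0798) or mouse 728 (0.0512).

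Classes of transcript differed in their calls. Of 12109 protein-coding genes 1803 rose and 1608 fell (median 0.02). Of 2084 long noncoding genes 75 rose and 170 fell (median -0.19), with 25 and 69 of 411 lincRNA genes (median -0.26). These were 3.599% and 8.157% of long noncoding genes, both below the shares of all genes tested (12.5% and 12.0%). The lincRNA falls were 16.79%, above that share. Of genes tested at a level of 0 to 0.5 CPM, 5.79% were called higher and 3.503% lower. The part of level in the class counts was not tested, and class counts with 1 library left out are not given here. Among 72 snoRNA genes 0 rose and 6 fell (8.333%), and among 28 snRNA genes 0 and 9 (32.14%). For 44 variable segments of T cell receptors the counts were 0 and 8 (18.18%). Of the 15 genes of the mitochondrial chromosome that were tested 7 rose (46.7%) and 0 fell (median 0.56). The mitochondrial ribosomal RNA genes mt-Rnr1 (-0.07) and mt-Rnr2 (-0.07) did not pass the test. Among noncoding genes with a mean of at least 1 CPM, the largest rise was in Gm5541, a pseudogene, with 21, 0 and 2 counts untreated and 238, 263 and 127 with CoA (5.30, and 6.52 or 7.33 without the CoA or untreated library of mouse 715). H19, the imprinted long noncoding RNA, rose from 6.08, 4.29 and 4.05 to 15.1, 39.4 and 19.8 CPM (log2 fold change 2.29, SE 0.31, adjusted p = 0.00238). Mirt1, a lincRNA gene, fell from 5.67, 8.35 and 7.1 to 2.05, 1.7 and 1.51 CPM (log2 fold change -1.99, SE 0.21, adjusted p = 0.000888). The list of small nucleolar and small nuclear RNA genes was drawn by gene symbol and does not hold all genes of the snoRNA and snRNA classes above. In that list 0 of 48 rose and 3 fell (6.25%, median -0.21). Among these falls was Scarna10, a guide RNA of Cajal bodies (-0.94). With 1 library left out at a time, the falls of that list numbered from 1 to 4, and 6 members rose without the untreated library of mouse 728.

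The calls also varied with gene length. When the protein-coding genes were divided into 5 groups of near equal size by summed exon length, 430 rose and 256 fell in the shortest group (204 to 2514 bases) and 288 rose and 399 fell in the longest (7584 to 123179 bases). The median log2 fold change went from 0.06 in the shortest group to -0.05 in the longest. The difference had the same sign in each mouse, from 0.08 to -0.04 in mouse 715, from 0.12 to -0.06 in mouse 725 and from 0.03 to -0.02 in mouse 728. These shifts were small beside the changes of the genes named above, and their part in the counts of the lists was not tested.

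**Figure D5:**
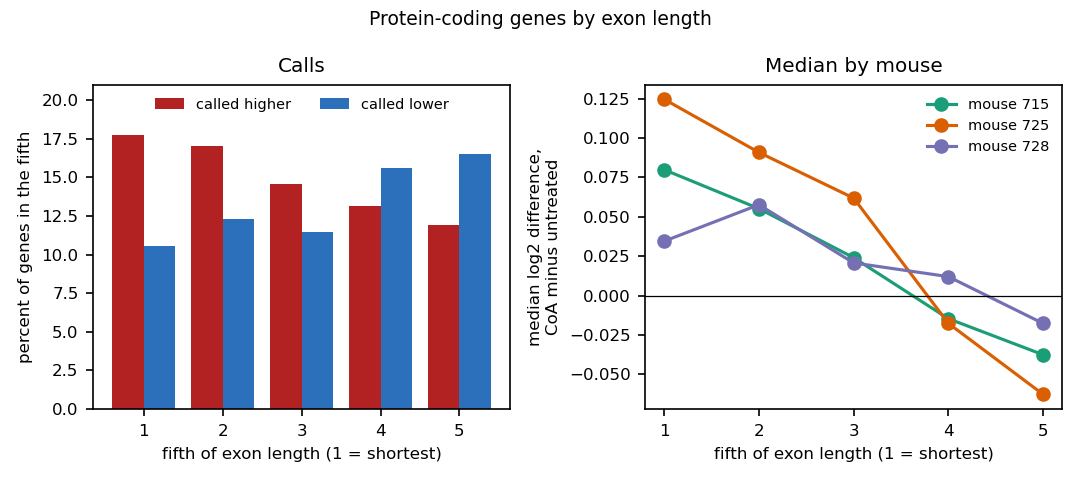
Protein-coding genes in 5 groups of exon length, from shortest (1) to longest (5). The left panel gives the percent of each group called higher (red) or lower (blue), the right panel the median log2 difference between the CoA and untreated library of each mouse, which goes from above 0 to below 0 in all 3 mice.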

How the data were processed

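The values are gene counts that the authors deposited in 1 table for 9 libraries, whole numbers per Ensembl gene. Per the submitters' processing notes, GRCm38 (mm10), RSEM 1.3.0 and STAR 2.5.2 were used, in an order and roles left unsaid. Neither annotation release nor strand setting is stated in the sources used here. Genes that passed edgeR's filter for low counts (15348 of 53679) were tested with edgeR 4.0.16 (R 4.3.3), TMM scaling, all 9 libraries and mouse as a block, with Benjamini-Hochberg adjustment. An adjusted p under 0.05 counted as called. The SE given with a log2 fold change is its absolute value divided by the square root of the F statistic, not a separate estimate. With 4 residual degrees of freedom, precision rests on the spread shared across genes. The design text pairs libraries by mouse, and the deviations of libraries of the same mouse correlated at 0.364 (mouse 715), 0.219 (725) and 0.720 (728). Libraries of different mice ran from -0.559 to 0.286. Of such pairs, 2, both between mice 715 and 725 (0.258 and 0.286), were above the value of mouse 725. Each deviation was taken from its group's own mean, so the values of same and different mice are not independent. CPM used TMM-scaled library sizes, and per-mouse differences log2(CPM + 0.5).

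Genes named were drawn from the 15 largest rises and falls with at least 5 CPM and one direction in all 3 mice. Other sources were the 8 largest gains and losses in CPM and up to 4 called members of each list with the smallest p. The 5 largest noncoding changes each way and genes turned on or off were a further source. Not every gene that these rules took is printed. Neighbouring genes, uncalled genes set beside others, Nr4a2, Cd7 and Gzmk were chosen after their values were seen. Members and lists were chosen with earlier results of these data known. Promoters came from RefSeq (GRCm38.p6), and positions from GRCm38. The fit was tested on simulated data without mouse effects. That simulation cannot show how the fit performs on libraries that differ by mouse, as these do. Alternatives were other scaling, no filter, no block, the 6 Tc0 libraries alone, DESeq2 1.42.0, each library left out and, chosen after seeing the data, mouse 728 left out. A few genes and 1 gene list are not reported here.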

Additional observations from a re-analysis of the deposited data

How the results depend on the processing

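Against 1915 genes called higher and 1848 lower, scaling by RLE gave 1954 and 1824, library size alone 2011 and 1732, no low-count filter 2069 and 2171, the 6 Tc0 libraries alone 1528 and 1434, and DESeq2 1995 and 1786. Without mouse as a block (no pairing) the counts were 800 and 662, all 1462 of them shared with the paired fit. With 1 library left out at a time they ran from 656 to 2360 and from 504 to 1996, and without mouse 728, a setting chosen after seeing the data, they were 947 and 675. Of 50 gene lists, 28 held more falls than rises (from 16 to 29 with 1 library left out, 18 without mouse 728), and 19 held more rises (from 17 to 27). Of the 134 named genes that were called, 117 were called without the block, between 120 and 134 with 1 library left out and 110 without mouse 728. The cause of these losses was not tested. Some changes near 0, none of them called, turned sign. Ccl5 was at 0.070 without mouse 728. With 1 library left out at a time, Klrd1 ran from -0.225 to 0.41, Rad50 from -0.13 to 0.047, mt-Rnr1 from -0.41 to 0.16 and mt-Rnr2 from -0.26 to 0.10. Low counts limit the precision of the genes named with their counts, and of genes with untreated levels near 0 CPM such as Il3 and Sox5os3.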
